A study of Mus musculus with 8 samples.

Results

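The 10 genes described here encode the 2 chaperonins of the mouse cell, and they were taken by name from 54838 genes in the count table. Tcp1, Cct2, Cct3, Cct4, Cct5, Cct6a, Cct7 and Cct8 encode the 8 subunits of CCT (also called TRiC), the chaperonin of the cytosol. Hspd1 and Hspe1 encode Hsp60 and Hsp10, the chaperonin of the mitochondrial matrix and its lid. RNA was measured in sorted acute myeloid leukaemia (AML) cells of C57BL/6 background that carry the RUNX1-RUNX1T1 fusion, a core-binding factor fusion also known as AML1-ETO. The cells had been transplanted into Ptprca mice, which the labels describe as irradiated below a lethal dose. The study's methods give irradiation for its other AML models and do not name it for this one. Recipients received either Vehicle (4 samples) or AG636 by oral gavage at 100 mg/kg b.i.d. (4 samples). AG636 inhibits DHODH, a mitochondrial enzyme of pyrimidine synthesis, and the comparison asks how the sorted cells' transcripts differ after a single day of it. All 8 samples share the fusion, the transplantation and the sort, for which the study names high cKit and low or absent CD11b. The ages and sexes of the mice were not given in the sources used here. Bone marrow and spleen are both named as the source, with no tissue given for a single sample. Nothing in the labels makes each sample a separate mouse, and the study gives fewer mice per group than there are samples, so the p-values measure the spread between these samples, which may not all be independent.

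A chaperonin is a double ring that encloses an unfolded protein and lets it fold inside a closed chamber at the cost of ATP. The CCT ring is built from different but related subunits, each with its own place in the ring, and it folds actin, tubulin, WD40 proteins such as the anaphase-promoting complex activators, and other clients that cannot fold alone. Prefoldin and the phosducin-like proteins deliver clients to CCT or modulate it. Hsp60 folds proteins that have been imported into the mitochondrion, usually after mitochondrial Hsp70 has pulled them through the membrane, and Hsp10 closes its chamber. Growing cells, which make much new protein, hold large amounts of both chaperonins.

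The libraries read the 3′ ends of poly-A transcripts, so a count stands for a transcript with little dependence on its length. Samples held 6120030 to 7162036 counts and 16141 to 18049 genes with at least 1 count. Levels below are CPM, that is counts scaled to the library size after TMM adjustment (the axis unit of the plots), and log2 fold changes are AG636 over Vehicle from a limma-voom fit of all genes, with p-values adjusted by the Benjamini-Hochberg method over the 10911 genes tested and a threshold of 0.05. In that fit 8.49% of the genes tested passed the threshold lower in AG636 and 5.47% higher, so that 60.8% of calls were lower, a share that became 38.3% when samples were scaled by library size alone. Kit (153 to 252 CPM) and Myb (388 to 717 CPM) were expressed in every sample. With them, the 8 immature myeloid markers summed to 564 to 702 CPM in Vehicle samples and 639 to 950 CPM in AG636 samples. None of the 5 that were tested passed. Genes of the primary granules, which immature myeloid cells usually express, were near 0, Mpo at no more than 4.77 CPM and Elane at no more than 4.34 CPM. Several erythroid genes were high, with Hbb-bs at 1022 to 3708 CPM and Gata1 at 196 to 266 CPM, but Alas2 of the same list was low (6.15 to 18.7 CPM). The labelled cell type is therefore kept here as a name only. Summed over 7 erythroid markers, levels ran from 2269 to 5702 CPM in Vehicle samples and from 4451 to 5693 CPM in AG636 samples, and none of the 7 passed the test. The 8 mature myeloid markers summed to 41.2 to 95.9 CPM in Vehicle samples and 16.0 to 184 CPM in AG636 samples, with Itgam, which encodes CD11b, at 0 counts in 3 of 8 samples and no more than 4 in any. The 6 B cell markers summed to 5.38 to 13.4 CPM against 10.7 to 22.5 CPM, and 1 of the 5 that were tested, Cd79a, passed as higher. T and NK cell markers (6 genes, at most 20.4 CPM in sum) and megakaryocyte markers (5 genes, 12.0 to 18.1 against 13.1 to 61.0 CPM) held no called gene. Only 2 genes of each of these lists passed the filter on low counts and were tested. The part of any of these cells in the results below was not tested. In bulk samples of this kind, fewer cells of a type and less RNA per cell cannot be told apart.

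All 10 chaperonin genes passed the filter on low counts, and all 10 had fold changes below 0. Of the 10 genes, 8 passed the test and all 8 fell, which is to be read against the 8.49% of all tested genes that were called lower. In 9 of the 10 every AG636 sample lay below every Vehicle sample, against 12.9% of all tested genes. The members, and the related lists below, were chosen with earlier results of these data known, so such counts are a description only. The median log2 fold change was -0.43 over the 10 genes, -0.41 over the CCT genes and -0.74 over the mitochondrial pair, beside -0.0056 over all genes tested. Together the 10 genes took 0.365 to 0.436% of the counts of the Vehicle samples and 0.285 to 0.310% of those of the AG636 samples, so these groups did not overlap either. Vehicle sample 4 stood apart: it was the highest Vehicle sample for 10 of the 10 genes, and it also had the lowest erythroid sum of all samples. Vehicle sample 2 had the next lowest erythroid sum (3427 CPM), and it was the lowest Vehicle sample for 4 of the genes and the highest for 0. When Vehicle sample 4 was left out, 8 of the 10 genes still passed and the median of the 10 was -0.37. AG636 sample 4 was the highest AG636 sample for 6 genes and the lowest for 2.

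**Figure D1:**
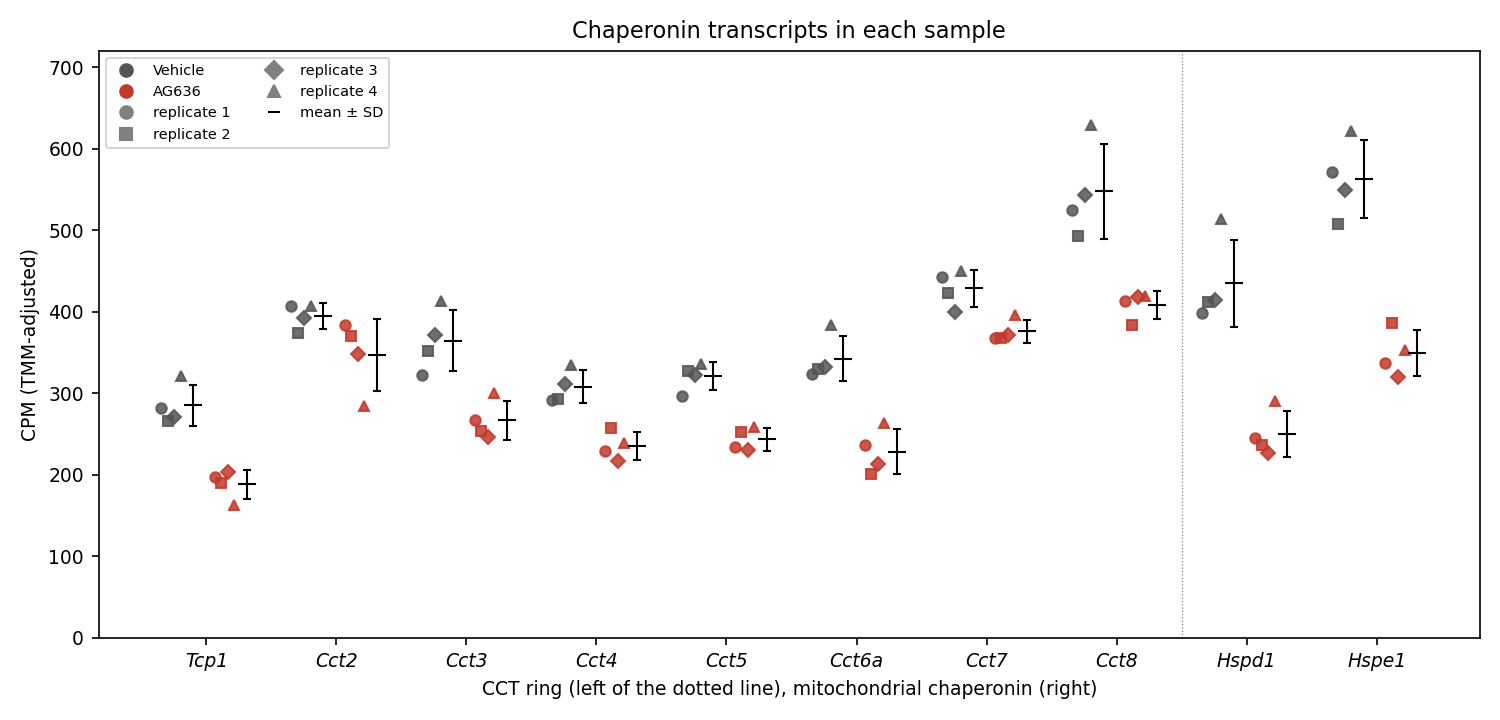
Level of each chaperonin gene in each sample, in CPM on the TMM-adjusted library size (linear axis from 0). Grey symbols are Vehicle and red symbols AG636, the symbol shape gives the replicate number, and bars show the mean ± SD of 4 samples. Every gene except Cct2 has all red symbols below all grey symbols, and the grey triangle (Vehicle sample 4) is the top grey symbol throughout.

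The mitochondrial pair had the largest fold changes of the 10 genes. Hspd1 (ENSMUSG00000025980) and Hspe1 (ENSMUSG00000073676) lie head to head on chromosome 1, Hspd1 at chr1:55077835-55088243 on the minus strand and Hspe1 at chr1:55088132-55091307 on the plus strand (GRCm38), and their annotated 5′ ends overlap by 112 bases. The stretch between them serves both as a promoter, and RefSeq promoter windows (250 bases before to 50 after each start, GRCm38.p6) were available for 9 of the 10 members, in 12 windows. The first stretch holds a heat shock element core, a pair of inverted units that is only part of the element to which heat shock factors bind. It is shown because a single site falls in the windows of both genes. The E-box stretch is shown because Hspd1 was the only member with a window that held that motif. Capitals mark the motif, and each stretch is 5′ to 3′ on the strand named.
Hspe1, chr1:55088053-55088082, plus strand: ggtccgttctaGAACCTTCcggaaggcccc
Hspd1, chr1:55088306-55088335, minus strand: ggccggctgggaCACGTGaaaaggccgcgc
The first stretch begins its motif at position -84 from the Hspe1 start and lies in an annotated UTR of Hspd1. The second begins its motif at position -80 from the Hspd1 start and lies in an annotated UTR of Hspe1. Matches to GAANNTTC on either strand were present in 7.86% of all 32851 windows, and matches to CACGTG in 7.15%. The letters on both sides of the heat shock core continue the alternation: the site holds 4 alternating units (TTC and GAA with 2 bases between them). Runs of at least 3 units were found in 0.603% of all windows and runs of at least 4 in 0.0244% (8 windows, the 2 of this site included). Both searches were chosen after the stretch had been seen. A match is a stretch of letters and not evidence of binding.

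Hspd1, which encodes Hsp60, the ring itself, measured 398, 412, 414 and 514 CPM in Vehicle samples 1 to 4. In AG636 samples 1 to 4 it measured 245, 237, 227 and 290 CPM. The highest AG636 sample was thus far under the lowest Vehicle sample, and sample 4 was the top of both groups. The mean fell from 435 ± 53.4 to 250 ± 28.0 CPM (SD, n = 4 each), which is 42.5% lower. On the log2 scale the difference was -0.80 (SE 0.11, limma-voom adjusted p = 0.00218), the 72nd smallest p-value of all genes tested. Hspe1, which encodes the Hsp10 lid, measured 571, 507, 550 and 622 CPM in the Vehicle samples and 337, 386, 320 and 353 CPM in the AG636 samples. Its groups were also well apart, and AG636 sample 2 was here the highest of its group. The mean fell from 562 ± 47.8 to 349 ± 28.1 CPM, 37.9% lower, with a log2 fold change of -0.69 (SE 0.09, limma-voom adjusted p = 0.00216), the 59th smallest p-value.

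Ring and lid transcripts were then set against each other within each sample, which removes library size. Vehicle samples held 1.43, 1.23, 1.33 and 1.21 Hspe1 counts per Hspd1 count, and AG636 samples held 1.37, 1.63, 1.41 and 1.22. These ranges overlapped, and the mean log2 ratio differed by 0.11 between groups (0.38 ± 0.11 in Vehicle, 0.49 ± 0.17 in AG636; two-sided exact permutation p = 0.343 over 70 relabellings), less than the spread between samples. A difference in how far ring and lid fell was thus not detectable with 4 samples per group.

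Among the CCT genes, Tcp1 and Cct6a had the largest fold changes. Tcp1 (ENSMUSG00000068039, chr17:12915701-12925067, plus strand) encodes the subunit CCT alpha, the first of the family to be described. It measured 282, 266, 271 and 321 CPM in Vehicle samples and 198, 190, 203 and 162 CPM in AG636 samples. The groups were clear of each other, with AG636 sample 4 the lowest of all. The mean fell from 285 ± 24.8 to 188 ± 18 CPM, 34.0% lower, and the log2 fold change was -0.60 (SE 0.10, limma-voom adjusted p = 0.00458). Cct6a (ENSMUSG00000029447, chr5:129786998-129846371, plus strand) encodes the zeta subunit. Its Vehicle samples measured 324, 330, 333 and 384 CPM and its AG636 samples 237, 201, 214 and 263 CPM. Sample 4 was the highest in each group, and no AG636 sample reached a Vehicle sample. The mean fell from 342 ± 27.7 to 228 ± 27.3 CPM, 33.5% lower, with a log2 fold change of -0.59 (SE 0.10, limma-voom adjusted p = 0.00547).

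Next came 4 subunits with closely similar fold changes. Cct3 (ENSMUSG00000001416, chr3:88297116-88321767, plus strand), the gamma subunit, measured 323, 352, 371 and 413 CPM in Vehicle samples and 267, 253, 247 and 300 CPM in AG636 samples. The gap between the groups was small beside the spread within them, since Vehicle sample 1 and AG636 sample 4 came close. Its mean fell from 365 ± 37.7 to 267 ± 23.6 CPM (log2 fold change -0.45, SE 0.10, limma-voom adjusted p = 0.0140). Cct8 (ENSMUSG00000025613, chr16:87483326-87495873, minus strand), the theta subunit, measured 524, 493, 543 and 629 CPM in Vehicle samples and 413, 383, 418 and 419 CPM in AG636 samples. Here the AG636 samples were tightly grouped and the Vehicle samples were spread. The mean fell from 547 ± 58.5 to 408 ± 16.7 CPM (log2 fold change -0.42, SE 0.09, limma-voom adjusted p = 0.0134). Cct5 (ENSMUSG00000022234, chr15:31590800-31601804, minus strand), the epsilon subunit, measured 297, 328, 323 and 336 CPM in Vehicle samples and 233, 252, 230 and 259 CPM in AG636 samples. Both groups were narrow and apart, and the mean fell from 321 ± 17.0 to 244 ± 13.9 CPM (log2 fold change -0.40, SE 0.08, limma-voom adjusted p = 0.00978). Cct4 (ENSMUSG00000007739, chr11:22990519-23003780, plus strand), the delta subunit, measured 291, 293, 312 and 335 CPM in Vehicle samples and 229, 257, 216 and 240 CPM in AG636 samples. The groups did not overlap, and the mean fell from 308 ± 20.4 to 235 ± 17.3 CPM (log2 fold change -0.39, SE 0.08, limma-voom adjusted p = 0.0142). Cct3 and Cct4 were the members that lost their call when a single sample was left out. Without Vehicle sample 3 their limma-voom adjusted p-values were 0.0513 and 0.0526, and 6 of the 10 members passed. Their log2 fold changes were then -0.44 and -0.38, close to those with all samples. Fewer genes were called in all without that sample (688 against 1523).

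Cct7 and Cct2 did not pass the test. Cct7 (ENSMUSG00000030007, chr6:85451514-85468475, plus strand), the eta subunit, measured 443, 423, 400 and 450 CPM in Vehicle samples and 367, 368, 372 and 396 CPM in AG636 samples. The groups just missed each other, with AG636 sample 4 close beneath Vehicle sample 3. The means were 429 ± 22.6 and 376 ± 13.8 CPM, 12.3% lower in AG636, with a log2 fold change of -0.19 (SE 0.07, limma-voom adjusted p = 0.115). Cct2 (ENSMUSG00000034024, chr10:117051001-117063814, minus strand), the beta subunit, measured 407, 374, 392.1 and 407 CPM in Vehicle samples and 384, 370, 348 and 284 CPM in AG636 samples. It was the only member whose groups overlapped, and AG636 sample 4 lay well below the other 3. The means were 395 ± 15.8 and 346 ± 44.2 CPM, 12.8% lower in AG636, with a log2 fold change of -0.20 (SE 0.10, limma-voom adjusted p = 0.209). Neither passed under any of the 18 other settings tried, in which the fold change of Cct7 ranged from -0.23 to -0.12 and that of Cct2 from -0.25 to -0.09.

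**Figure D2:**
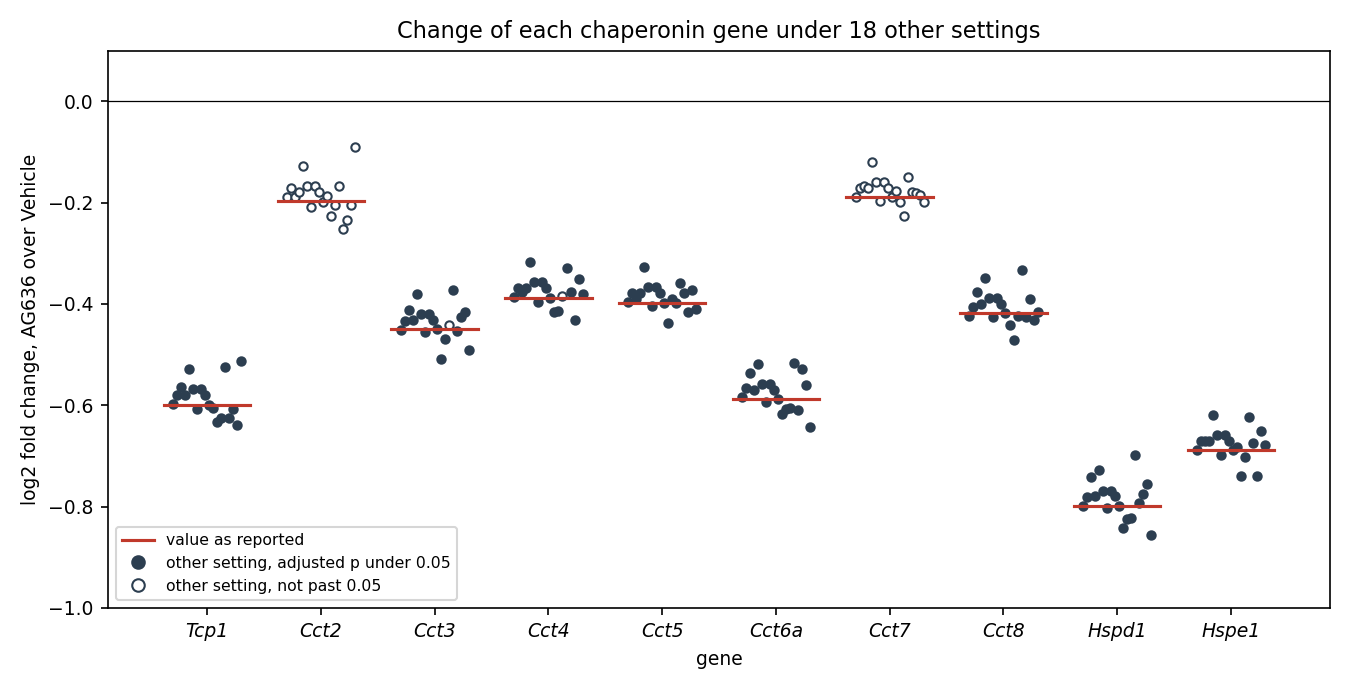
Log2 fold change, AG636 over Vehicle, of each chaperonin gene as reported (red line) and under 18 other settings (points, filled where the adjusted p is under 0.05). Every point lies below 0. Cct2 and Cct7 have open points only, and Cct3 and Cct4 have 1 open point each, for the setting without Vehicle sample 3.

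Promoter stretches of the CCT genes are shown for those with the largest fold changes (Tcp1 and Cct6a) and the smallest (Cct7 and Cct2). The 4 motifs searched were CCAAT and AAGATGG beside the heat shock core and the E-box. CCAAT, searched on both strands, was present in 5 of the 12 member windows (of Tcp1, Cct3, Cct6a, Cct7 and Hspd1). It was present in 37.4% of all windows, a share near that of the member windows. Cct2 had no CCAAT. Among the members with a window it was the only CCT gene with a heat shock element core and the only one with AAGATGG, the core of the YY1 motif, which 6.34% of all windows held. For Tcp1 and Cct7 a single site is given, for Cct6a and Cct2 a pair of sites, with the motif in capitals.
Tcp1, chr17:12916185-12916214, plus strand: atccctggctcaCCAATcaccgcagacgtt
Cct6a, chr5:129787285-129787314, plus strand: cgttggattaagCCAATcagcgggcggcag
Cct6a, chr5:129787315-129787344, plus strand: gagggtcgccacCCAATggaggtgctctgt
Cct7, chr6:85451398-85451427, plus strand: aaccgggcgctgATTGGccaaaactcttaa
Cct2, chr10:117063399-117063428, minus strand: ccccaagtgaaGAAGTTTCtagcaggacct
Cct2, chr10:117063326-117063355, minus strand: ccgtgcttgcctgcggAAGATGGagggtag
The Tcp1 motif begins at position -132 from its start, in an annotated intron of Tcp1 and a UTR of Mrpl18. The Cct6a motifs begin at positions -59 and -29, where a non-coding exon of Cct6a and a UTR of Psph overlap. The Cct7 motif, CCAAT read on the opposite strand, begins at position -95 in an intron of Pradc1, and 2 more lie at -187 and -125. Both Cct2 sites lie in the second of its 2 windows, whose start lies inside the annotated gene. From that start the heat shock core begins at position -42 in an intron of Cct2 and the YY1 core at position 37 in a UTR of Cct2. The first Cct2 window held none of the 4 motifs. The windows of Cct5 and Cct8 held none of the 4 motifs. CCAAT was thus present in the promoter windows of CCT genes that passed the test and of Cct7, which did not.

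Summed over the ring, CCT transcripts measured 2890, 2858, 2944 and 3274 CPM in Vehicle samples and 2327, 2275, 2247 and 2323 CPM in AG636 samples. The AG636 samples lay within a narrow band beneath all Vehicle samples. The mean was 2992 ± 192 CPM in Vehicle and 2293 ± 38.7 CPM in AG636, 23.4% lower. Hspd1 and Hspe1 together measured 997 ± 95.2 and 599 ± 42.8 CPM, 40.0% lower. Set against the ring within each sample, the pair gave 33.5, 32.2, 32.7 and 34.7 counts per 100 CCT counts in Vehicle samples and 25.0, 27.4, 24.3 and 27.7 in AG636 samples (means 33.3 ± 1.09 and 26.1 ± 1.68). The mitochondrial pair was thus lower relative to the cytosolic ring in every AG636 sample than in any Vehicle sample, a measure that library size does not enter. No test was run on it.

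The ring holds its 8 subunits in equal number, so the share of each gene among the CCT counts shows whether the transcripts moved together. Tcp1 took 9.76, 9.31, 9.19 and 9.80% of the CCT counts in Vehicle samples and 8.49, 8.36, 9.04 and 6.995% in AG636 samples. Its share was lower in every AG636 sample, though Vehicle sample 3 and AG636 sample 3 were close. Cct7 took 15.3, 14.8, 13.6 and 13.7% in Vehicle samples and 15.8, 16.2, 16.5 and 17.1% in AG636 samples, higher in every AG636 sample. The shares of the other 6 genes overlapped between groups. Cct6a took 11.4 ± 0.236% in Vehicle and 9.95 ± 1.06% in AG636, where AG636 sample 4 lay within the Vehicle range. Cct2 took 13.2 ± 0.680% and 15.1 ± 1.98%, and AG636 sample 4 was again the exception, at 12.2%. For Cct4 the shares were 10.3 ± 0.217% and 10.3 ± 0.747%, and for Cct5 10.7 ± 0.585% and 10.6 ± 0.566%. A share can rise only as others fall, so the 8 shares are not independent.

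**Figure D3:**
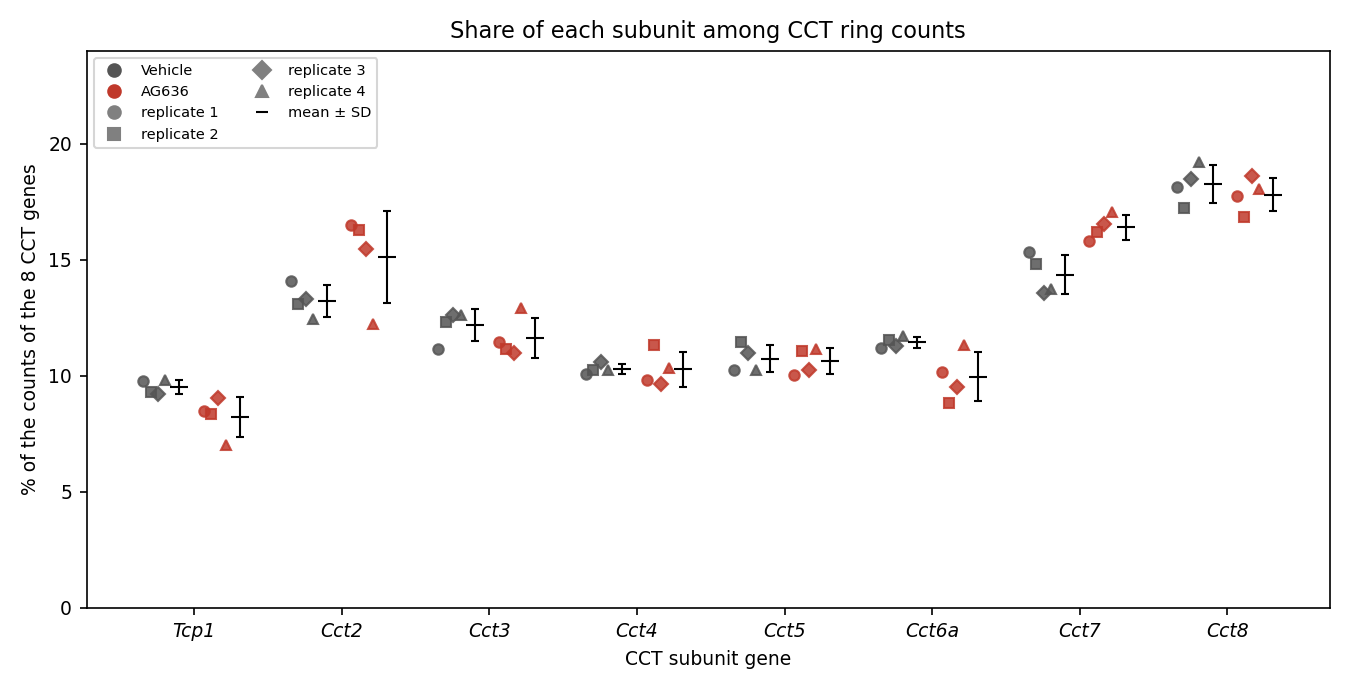
Share of each subunit gene among the counts of the 8 CCT genes, in percent, for each Vehicle (grey) and AG636 (red) sample, with the symbol shape giving the replicate number and bars the mean ± SD of 4 samples. Only Tcp1 (lower in AG636) and Cct7 (higher in AG636) have groups that do not overlap.

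Several members share bases with neighbours, and the sources used here do not say whether strand was used in counting, so reads from such stretches cannot be assigned with certainty. Of most weight for 3′ end reads is Cct8, whose 3′ end overlaps that of Usp16, a deubiquitinase gene on the opposite strand, by 192 bases. Usp16 held 3790 counts over all samples against 25024 for Cct8, and it measured 73.5 ± 2.41 and 71.3 ± 3.24 CPM (log2 fold change -0.04, adjusted p = 0.751). Tcp1 overlaps Acat3 at its 3′ end, but Acat3 is listed at 0 counts in every sample. At 5′ ends, Tcp1 overlaps Mrpl18, which encodes a mitochondrial ribosomal protein (645 bases, log2 fold change -0.33, adjusted p = 0.0843), Cct6a overlaps Psph, which encodes the last enzyme of serine synthesis (452 bases, -0.71, adjusted p = 0.0181), and Cct7 overlaps Pradc1 (457 bases, -0.32, adjusted p = 0.122). Psph did not pass without Vehicle sample 3 (limma-voom adjusted p = 0.0504), and Mrpl18 passed without AG636 sample 4 (0.0492) and with the replicate number as a block (0.0323). With library size alone the value of Usp16 was above 0 (0.0265) and did not pass. The small nucleolar RNA gene Snora20 lies within Tcp1 and held 52 counts in all. Processed copies took few reads as counted: 13 named pseudogenes of the members held 28 counts over all samples, at most 3 in a sample.

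Among partners and clients of CCT, calls went in both directions, and their counts are to be read against the 8.49% of all tested genes called lower and the 5.47% called higher. Of 12 genes for prefoldin and CCT cofactors, 2 were called lower and 1 higher, and their median log2 fold change was -0.026. Pfdn6, a prefoldin subunit, measured 151, 165, 172 and 170 CPM in Vehicle samples and 107, 90.7, 78.2 and 119 CPM in AG636 samples, clear of each other (log2 fold change -0.75, SE 0.12, limma-voom adjusted p = 0.00466). Pfdn1, another subunit of the same complex, went the other way, from 79.7 ± 5.45 to 103 ± 7.20 CPM (0.37, adjusted p = 0.0212). Txndc9, a phosducin-like protein that binds CCT, fell by 0.29 on the log2 scale (adjusted p = 0.0367). Of 18 client genes, 1 was called lower and 2 higher, with a median of 0.077, counts near those shares for a list of this size. Cdc20 and Fzr1, the WD40 activators of the anaphase-promoting complex, were higher in AG636 (0.55, adjusted p = 0.0181, and 0.53, adjusted p = 0.0149). The alpha tubulin gene Tuba4a fell from 372 ± 80.5 to 187 ± 65.1 CPM (-1.04, adjusted p = 0.0187). Actb, which encodes beta actin, a main client of the ring, measured 5214 ± 190 and 4636 ± 648 CPM and did not pass (-0.18, adjusted p = 0.279). Each call in these lists other than that of Pfdn6 was lost in more than 1 of the fits that left out a sample. Without Vehicle sample 3, limma-voom adjusted p-values were 0.0665 for Pfdn1, 0.0732 for Txndc9, 0.0666 for Cdc20, 0.0550 for Fzr1 and 0.0636 for Tuba4a. Without Vehicle sample 1 they were 0.0773, 0.0820, 0.0624, 0.0503 and 0.0608 in the same order. Without Vehicle sample 2, Pfdn1 (0.0559), Txndc9 (0.0983), Cdc20 (0.0551) and Tuba4a (0.0518) did not pass. Pfdn1 and Cdc20 did not pass without AG636 sample 1 (0.0503 each). Txndc9 also lost its call without Vehicle sample 4 (0.0995), without AG636 samples 1, 2 or 3 (0.0589, 0.0609 and 0.0653), with the replicate block (0.0537), with library size alone (0.111) and with no filter on low counts (0.103). Pfdn1 also did not pass with no filter (0.0589).

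Around the mitochondrial pair, 3 of the 7 genes of the mitochondrial Hsp70 system were called lower and none was called higher. All 7 lay below 0, and their median log2 fold change was -0.20. Hspa9, which encodes mitochondrial Hsp70, measured 316, 332, 324 and 414 CPM in Vehicle samples and 227, 209, 225 and 249.2 CPM in AG636 samples. As with Hspd1, Vehicle sample 4 stood above its group and no AG636 sample reached a Vehicle sample (-0.60, SE 0.10, limma-voom adjusted p = 0.00529). Grpel1, its nucleotide exchange factor, fell from 52.0 ± 4.0 to 35.4 ± 3.33 CPM (-0.55, adjusted p = 0.00816), and Trap1, the mitochondrial Hsp90, from 91.8 ± 5.17 to 65.5 ± 6.37 CPM (-0.49, adjusted p = 0.00867). Of 8 genes for mitochondrial proteases 1 was called lower, which is near the 8.49% of all tested genes and no result about the list. It was Clpp, the proteolytic ring of the matrix (-0.52, adjusted p = 0.0146). Afg3l2 (-0.29, adjusted p = 0.101) and Htra2 (-0.26, adjusted p = 0.153) followed and did not pass. Without Vehicle sample 3 Clpp did not pass (limma-voom adjusted p = 0.0520), and without AG636 sample 2 Afg3l2 did (0.0369). The median of the protease list was -0.15.

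In the other chaperone lists the called genes were lower in AG636, again beside 8.49% of all tested genes called lower and 5.47% higher. In the cytosolic Hsp70 and Hsp90 list 8 of 20 genes were called lower and none higher, 15 of the 20 lay below 0, and the median was -0.32. Hsph1, the Hsp110 exchange factor, measured 65.4, 65.2, 64.2 and 76.1 CPM in Vehicle samples and 25.2, 24.1, 33.2 and 40.8 CPM in AG636 samples, a larger fold change than that of any chaperonin gene (-1.16, SE 0.15, limma-voom adjusted p = 0.00216). Hspa4 (-0.72, adjusted p = 0.00241), Ptges3, the Hsp90 cochaperone p23 (-0.62, adjusted p = 0.00466), Hspa8, the constitutive Hsp70 (-0.89, adjusted p = 0.00954), and Hsp90ab1, the constitutive Hsp90 (-0.50, adjusted p = 0.0209), fell as well. Hsp90ab1 did not pass without Vehicle samples 1, 2 or 3 (limma-voom adjusted p = 0.0623, 0.0550 and 0.0690) or without AG636 sample 1 (0.0503). Some genes of this list and of other lists divided AG636 samples 1 and 2 from samples 3 and 4. Those given here were chosen after their values were seen. Hspa8, called lower, measured 80.1 and 95.8 CPM in AG636 samples 1 and 2 and 149 and 144 CPM in samples 3 and 4. In other lists Calr, an endoplasmic reticulum chaperone (274 and 269 against 432 and 532 CPM), and Tuba4a (121 and 141 against 248 and 237 CPM) were divided likewise. Canx was not (347 and 373 against 384 and 340 CPM). Hspa1a and Hspa1b, the heat-inducible Hsp70 genes, had fold changes above 0 that did not pass (0.54, adjusted p = 0.821, and 0.47, adjusted p = 0.825). Hspa1b measured 8.45, 83.6, 14.9 and 42.6 CPM in Vehicle samples and 4.35, 11.5, 227 and 133 CPM in AG636 samples, and Hspa1a was likewise highest in AG636 samples 3 and 4 (101 and 63.3 CPM). Hsp90aa1, the inducible Hsp90, measured 670 and 623 CPM in AG636 samples 1 and 2 but 1233 and 1288 CPM in samples 3 and 4, beside 1119 to 1321 CPM in Vehicle samples (-0.47, adjusted p = 0.180). The CCT sum did not divide the AG636 samples in this way, at 2327 and 2275 CPM in samples 1 and 2 and 2247 and 2323 CPM in samples 3 and 4. In the list of chaperones of the endoplasmic reticulum 8 of 12 genes were called lower and none higher. All 12 lay below 0, as all members did, and the median was -0.51, beside -0.41 over the CCT genes. Canx, the lectin chaperone calnexin, fell from 471 ± 15.7 to 361 ± 21.2 CPM (-0.38, adjusted p = 0.00970), and Pdia3 (-0.47, adjusted p = 0.0118) and Dnajb11 (-0.66, adjusted p = 0.0133) fell too. Over all 77 genes of the 6 related lists, 23 were called lower, against 8.49% of all tested genes, and 3 higher, a count no larger than the 5.47% of all tested genes would give. Their median was -0.17.

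**Figure D4:**
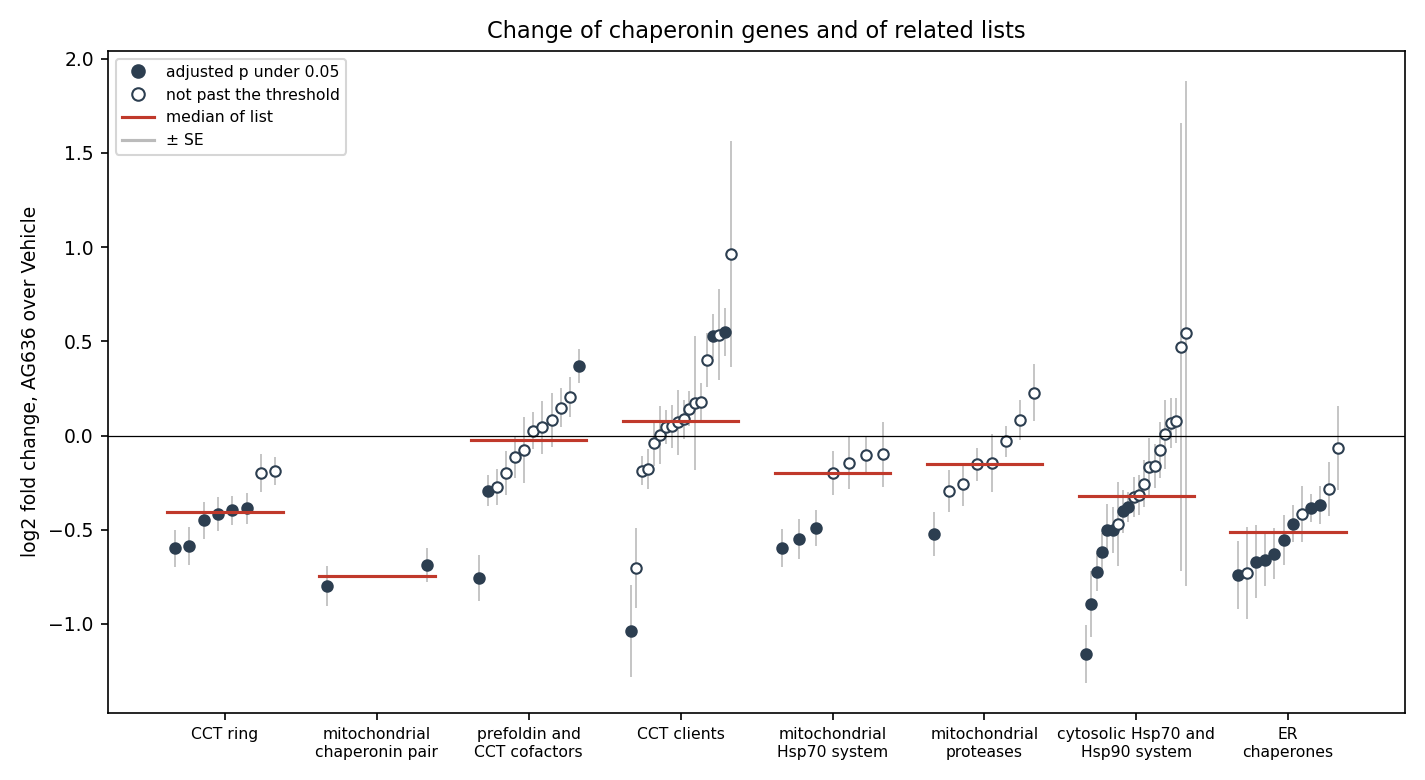
Log2 fold change, AG636 over Vehicle, of every tested gene in the CCT ring, the mitochondrial chaperonin pair and 6 related lists (points, with SE as grey bars, filled where the limma-voom adjusted p is under 0.05), with the median of each list in red. All points of the ring and the pair lie below 0, and so do all points of the mitochondrial Hsp70 system and the ER chaperones. The remaining lists, CCT cofactors and CCT clients among them, have points on both sides.

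The genes whose profiles were most like those of the chaperonins were sought among 5276 tested non-member genes whose log2 CPM averaged 5 or more, by Pearson's r of log2 CPM over the 8 samples. These values span both groups, so a shared difference between the groups enters each r, and they are given as a description. The mean of the 8 CCT genes was followed most closely by Ormdl2 (r = 0.995), a regulator of sphingolipid synthesis, Srsf1 (r = 0.993), a splicing factor, Uqcr11 (r = 0.991), a subunit of respiratory complex III, Cfdp1 (r = 0.989) and Cdv3 (r = 0.988). The mean of Hspd1 and Hspe1 was followed by Cdv3 (r = 0.998), Mak16 (r = 0.993), a factor of large ribosomal subunit assembly, Snu13 (r = 0.993), a protein of the spliceosome and of box C/D small nucleolar RNPs, Gars (r = 0.992), the glycyl-tRNA synthetase, and Ddx56 (r = 0.991), a nucleolar RNA helicase. Cdv3 stood in both sets of 5. It measured 169, 163, 172 and 186 CPM in Vehicle samples and 116, 121, 112 and 124 CPM in AG636 samples, so that, like most members, it had Vehicle sample 4 at the top and no overlap between groups.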

How the data were processed

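RNA-seq of 8 samples (4 Vehicle, 4 AG636, grouped by title) was used. The authors deposited raw read counts per gene. According to the submitters' processing notes, reads were checked with FastQC, trimmed with cutadapt (1.9.1), mapped to mm10 (GRCm38) with HISAT2 (2.0.4) and counted with featureCounts of Subread (1.5.0-p3). The study's methods name other versions for some of these. Treatment of strand and of multi-mapping reads was not given in the sources used here. Of 54838 genes, 115 had no symbol in the name table.

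Genes were kept by filterByExpr (minimum count 10), scaled by TMM and fitted with limma-voom in R 4.3.3 (edgeR 4.0.16 and limma 3.58.1), with group as the only term and two-sided tests. The study's methods name limma. Log2 CPM used a prior count of 2. No pair of replicates agreed within sampling noise by a chi-square test. The fit was tested on simulated data. Alternatives were edgeR's quasi-likelihood test, DESeq2 (1.42.0), sample weights, other scalings and filters, a replicate block, each sample left out and a threshold of 0.01. Outside the members, the text names the top 3 genes by p-value of every related list, Hspa9, Grpel1, Hsp90ab1, Hspa8 and Actb, genes that overlap a member, and the 5 genes most like each mean profile. Genes said to divide the AG636 samples were chosen after their values were seen. Marker genes are named from fixed lists. The members and lists were chosen with earlier results of these data known. Protein sequences and a promoter of Cct4 were not used here. Symbols, coordinates and overlaps are those of the count table, and promoter windows are from RefSeq.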

Additional observations from a re-analysis of the deposited data

Results flagged for a closer look

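In 6 of 90 groups of 4 samples, counted over the named genes and the Hspe1 to Hspd1 ratio in both treatments, 1 sample lay far from the other 3, with a gap that passed Dixon's critical ratio for 4 values. Chance flags about 1 in 20 groups where groups are independent, which these are not: the genes share samples, and Ormdl2 and Uqcr11 were named because they follow the mean of the CCT genes, in which Vehicle sample 4 was already highest. That sample was the distant one for 5 genes and was high in each. It stood at 8.58 log2 CPM for Cct6a (the others at 8.34 to 8.38), 9.01 for Hspd1 (8.64 to 8.70), 6.26 for Hsph1 (6.01 to 6.04), 6.57 for Ormdl2 (6.38 to 6.40) and 8.26 for Uqcr11 (7.98 to 7.99). For the remaining gene, AG636 sample 4 was high for Cct7, at 8.63 log2 CPM beside 8.52 to 8.54. Vehicle sample 4 also differed most from its group in the chi-square test of counts, with 8.52 to 12.0 per degree of freedom against 3.69 to 4.27 between the other Vehicle samples. Between AG636 samples these values were 12.9 to 22.6.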

How the results depend on the processing

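Over 18 other settings, 178 of 180 values of the members kept their direction and their side of the threshold. The other 2 were Cct3 and Cct4 without Vehicle sample 3. All 10 members stayed below 0 in every setting, and 8 passed in each except that 6 passed without Vehicle sample 3. At a stricter threshold, an adjusted p under 0.01, 5 members passed and 435 genes were called (295 lower, 140 higher), 9 of them in the related lists (9 lower, 0 higher), beside 1523 (926 and 597) and 26 (23 and 3) at 0.05. DESeq2 called 955 genes higher, and library size alone gave 571 lower and 918 higher. With 1 sample left out, 688 to 1706 genes were called (467 to 937 lower, 221 to 769 higher), 6 to 8 members, 13 to 30 related genes (13 to 27 lower, 0 to 4 higher), and the Hspe1 to Hspd1 difference was 0.04 to 0.18. The counts were lowest without a Vehicle sample: 798, 918, 688 and 1010 genes without samples 1, 2, 3 and 4. Of 792 values of 44 named genes, members included, 753 were the same, 35 lost and 3 gained the threshold, and 1 turned sign (Usp16 with library size alone, 0.0265). The cause of these moves was not tested.

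Replicate numbers of Vehicle and AG636 samples are not said to mark a pairing. Deviations of same-numbered samples correlated at -0.14, 0.01, 0.20 and 0.14, so the numbers were not taken as pairs. With the replicate number as a block, 1446 genes (830 lower, 616 higher), 8 members and 27 related genes (24 lower, 3 higher) were called, and the ratio difference was 0.11. The members together held 17507 to 28987 counts per sample.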
